A study of Homo sapiens with 9 samples.

Results

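The replication-dependent core histone genes were followed in H1993 lung adenocarcinoma cells in which *TDRD9* had been silenced. Members were all probe sets of the PrimeView array whose annotation named a single gene with a symbol made of H2AC, H2BC, H3C or H4C and a number. Linker histones (H1) and variant histones were left out. This gave 98 probe sets for 55 genes, out of 44988 single-gene probe sets for 18132 genes on the array. They comprised 26 probe sets for 15 H2A genes, 40 for 18 H2B genes, 16 for 10 H3 genes and 16 for 12 H4 genes. A single probe set represented 26 of the genes, and 29 had 2 or more, with at most 4.

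Core histones are the proteins around which DNA is wrapped in the nucleosome: H2A and H2B form dimers that flank a tetramer of H3 and H4. In animal cells the replication-dependent genes lie in clusters and are transcribed mainly in S phase, when new DNA has to be packaged, under the coactivator NPAT. Their mRNAs have no introns and, in place of a poly(A) tail, end in a stem-loop that is bound by the stem-loop binding protein (SLBP) and is degraded rapidly once DNA synthesis stops.

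H1993 (NCI-H1993) is a human lung adenocarcinoma line that expresses *TDRD9*, a germline RNA helicase gene. Cells of this 1 line received a control siRNA (siControl) or one of 2 siRNAs against *TDRD9* (siTDRD9-1 and siTDRD9-2), and RNA was taken 72 hours later. There were 3 cultures per siRNA, which the paper describes as 3 independent transfection experiments, and 1 array per culture, 9 in all. No untransfected cells were examined, and the main fit did not pair cultures by replicate number. Values are log2 signals, so that a difference of 1 is a 2-fold change, and the number of arrays limits their precision. A probe set was called at a false discovery rate (FDR, the Benjamini-Hochberg adjusted *P* of limma over all 49293 tested probe sets) below 0.01 when its signal differed 2-fold or more, and "rose" or "fell" is used for an FDR under 0.01. Both siRNAs were compared with the same 3 siControl arrays. The RNA isolation field of the labels names another cell line, HCT-shSLBP, and the labelling field a whole-transcript kit. The sample names, which give NCI-H1993, were followed. Because core histone mRNAs lack a poly(A) tail and need SLBP, both fields bear on which histone transcripts these signals represent, and this was not tested. The probe sets of *SLBP* stood at 10.74 to 10.94 and at 9.18 to 9.60 over the 9 arrays. The epithelial markers *EPCAM*, *KRT8*, *KRT18*, *KRT19* and *CDH1* stood between 11.27 and 13.49 on all arrays, and the 6 markers of fibroblasts, blood and endothelium between 3.10 and 6.15, which does not tell 1 epithelial line from another.

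The single *TDRD9* probe set fell by 2.18 with siTDRD9-1 (log2, FDR 2.22e-05) and by 0.70 with siTDRD9-2 (FDR 0.00931). Between arrays, Pearson's *r* over all tested probe sets was 0.994 to 0.998 within a group and 0.988 to 0.995 between groups. The siControl arrays stood apart in 2 kinds of control probe sets. The bacterial poly-A transcripts that are spiked into a sample averaged 8.10 to 8.35 on the siControl arrays and 7.33 to 7.68 on the other 6 (exact permutation test of 6 against 3 arrays, two-sided *P* = 0.0119, the smallest this design allows). The 3′ probe set of 18S rRNA read 11.29 to 12.36 and 13.08 to 13.87 (exact permutation *P* = 0.0119). Every difference between the 6 siTDRD9 arrays and the siControl arrays given here was measured across this offset, and the siRNA and the offset cannot be told apart. In RNA from whole cultures, fewer cells that express a gene cannot be told apart from less RNA per cell.

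Of the 55 genes, 48 map to chromosome 6, 6 (3 H2A and 3 H2B genes) to chromosome 1, and *H4C16* to chromosome 12. RefSeq (GRCh38.p14) gave a promoter window, from 250 bases before to 50 bases after the annotated start, for 50 of them. The presence of 3 short motifs was looked up on both strands of these windows. The TATA box was searched as TATAA and the CCAAT box by the letters of its name. The octamer, the binding motif of POU factors, was searched as ATTTGCAT. A TATAA that follows a T also matches on the other strand, and the last bases of a CCAAT box can be the first of an octamer. TATAA was present in 96% of the 50 windows and in 20.5% of 34796 promoter windows of the same length. CCAAT was present in 86% and 34.6%. By class, CCAAT was found in all H2A, H2B and H3 windows but in 30% of those of H4 genes. The octamer was present in 50% of the core histone windows and in 1.76% of all, and its occurrences lay in 78.6% of the H2A and 77.8% of the H2B windows, with none in those of H3 or H4 genes. In 11 pairs of an H2A and an H2B gene on opposite strands, the windows overlap by 253 to 293 bases. A motif in the overlap counts in both classes, so the H2A and H2B shares are not independent. These are matches of letters and were not tested for binding.

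Windows are printed for the genes of both markers and for the H2A and H2B genes with the lowest changes, because these 4 genes carry the contrast described below. The sequence runs 5′ to 3′ along the gene, with matches to the 3 motifs, on either strand, in capitals. *H2AC20* is on the plus strand at chr1:149886668-149886967, *H2AC17* on the minus strand at chr6:27893136-27893435, *H2AC21* on the minus strand at chr1:149887916-149888215 and *H2BC11* on the minus strand at chr6:27132746-27133045.
H2AC20: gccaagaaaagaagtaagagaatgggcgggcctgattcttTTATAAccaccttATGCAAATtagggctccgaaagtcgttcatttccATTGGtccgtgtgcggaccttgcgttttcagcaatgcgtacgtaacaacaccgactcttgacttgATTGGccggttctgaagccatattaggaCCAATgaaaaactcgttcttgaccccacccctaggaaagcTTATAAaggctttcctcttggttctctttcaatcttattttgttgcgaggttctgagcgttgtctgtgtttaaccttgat
H2AC17: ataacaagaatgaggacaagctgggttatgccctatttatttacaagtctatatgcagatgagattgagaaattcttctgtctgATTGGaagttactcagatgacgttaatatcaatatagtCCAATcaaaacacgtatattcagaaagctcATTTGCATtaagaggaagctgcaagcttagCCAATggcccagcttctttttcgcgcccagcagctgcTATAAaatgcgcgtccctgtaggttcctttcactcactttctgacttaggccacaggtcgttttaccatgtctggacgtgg
H2AC21: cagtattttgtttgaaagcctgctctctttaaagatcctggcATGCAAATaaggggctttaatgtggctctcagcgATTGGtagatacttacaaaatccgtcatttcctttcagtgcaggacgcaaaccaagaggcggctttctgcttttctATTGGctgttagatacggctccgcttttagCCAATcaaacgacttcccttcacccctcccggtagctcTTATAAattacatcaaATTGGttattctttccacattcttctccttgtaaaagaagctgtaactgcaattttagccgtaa
H2BC11: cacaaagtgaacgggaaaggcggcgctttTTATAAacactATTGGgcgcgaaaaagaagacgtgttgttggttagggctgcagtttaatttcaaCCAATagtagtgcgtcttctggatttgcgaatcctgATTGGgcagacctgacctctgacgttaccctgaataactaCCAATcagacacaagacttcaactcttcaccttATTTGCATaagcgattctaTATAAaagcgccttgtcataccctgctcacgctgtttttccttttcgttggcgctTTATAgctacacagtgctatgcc
All 4 windows held a TATAA that began 28 to 31 bases before the start, 3 or 4 CCAAT boxes counted on both strands and 1 octamer. The octamer match began 197 bases before the start in *H2AC20*, 98 in *H2AC17*, 208 in *H2AC21* and 47 in *H2BC11*. All 3 motifs were thus present in the windows of the genes that rose and of those at the low end of their class. The windows of *H2AC20*, *H2AC17* and *H2BC11* overlap those of *H2BC21*, *H2BC17* and *H2AC11* by 265, 261 and 253 bases. A match in an overlap cannot be assigned to 1 gene of the pair, and a role of the motifs in the changes was not tested.

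After silencing of *TDRD9*, most core histone probe sets stayed close to the siControl level. Of the 98, 1 probe set of *H2AC20* was called with siTDRD9-1, against a background of 0.714% of all tested probe sets. The same probe set was the only one called with siTDRD9-2, against 0.809%. It was higher with both siRNAs, as were 0.325% of all tested probe sets. Without a minimum fold, 3 of 98 rose with siTDRD9-1 (3.06%, background 2.41%) and 3 with siTDRD9-2 (3.06%, background 2.95%), and these were the same 3 probe sets, of *H2AC20* and *H2AC17*, beside 1.46% of all tested probe sets that rose with both. None fell with siTDRD9-1 (background 2.12%) or with siTDRD9-2 (background 2.23%), and 0.542% of all tested probe sets fell with both. This count of 0 depended on the fit. With array weights 5 members fell with siTDRD9-1 and 3 with siTDRD9-2, beside 9.21% and 5.09% of all tested probe sets. The 5 include an at and an x_at probe set of *H2BC21* with identical values on all arrays, so 1 reading counts repeatedly. In the same fit 7 and 6 members rose, beside 8.84% and 6.24%. With a replicate block or a variance trend 1, of *H2BC11*, fell with siTDRD9-2. At an unadjusted *P* under 0.05, 16 probe sets differed with siTDRD9-1 (11 higher and 5 lower) and 24 with siTDRD9-2 (10 higher and 14 lower) in limma, that is 16.3% and 24.5% against 23.4% and 25.4% of all tested probe sets. Shares of 1 or 3 in 98 probe sets are near these backgrounds, and the shares at the unadjusted limit were below them.

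The median log2 change of the 98 probe sets was -0.006 with siTDRD9-1 and -0.048 with siTDRD9-2, beside 0.0016 and -0.019 for all tested probe sets. By class, the medians were -0.022 and -0.03 for H2A, -0.011 and -0.031 for H2B, 0.11 and -0.10 for H3, and -0.039 and -0.072 for H4. For 92 of the 98 probe sets the 95% interval of the change lay within 2-fold in either direction with both siRNAs. The same held for 47156 of all 49293 tested probe sets, so this is not particular to the core histone genes. The 92 comprised all 16 H3 and all 16 H4 probe sets, 38 of 40 for H2B and 22 of 26 for H2A. The other 6 belonged to *H2AC20*, *H2AC17* (both probe sets), *H2AC7* and *H2BC11* (2 probe sets). The median standard error of a change was 0.124, beside 0.113 over all tested probe sets, and 28 of the 98 (28.6%) had a mean log2 signal under 4, beside 27.9% of all.

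**Figure D1:**
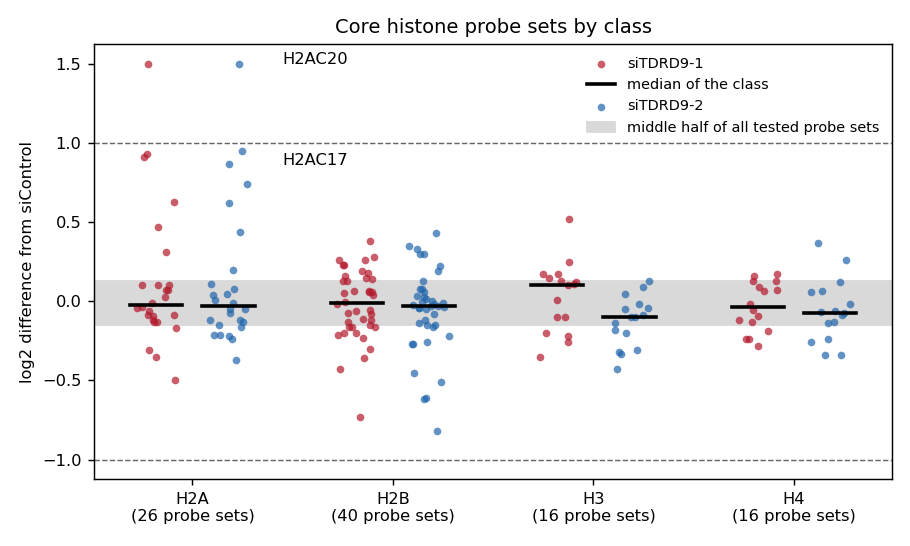
Log2 difference from siControl (vertical axis) of each of the 98 core histone probe sets by histone class, with siTDRD9-1 in red and siTDRD9-2 in blue. The black bars are class medians, the grey band spans the quartiles of all tested probe sets and the dashed lines mark 2-fold. The class medians lie between -0.10 and 0.11, and the probe set of *H2AC20*, at 1.5 with both siRNAs, is the only one beyond 2-fold.

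*H2AC20* encodes an H2A protein and lies in the cluster on chromosome 1. Its brighter probe set read 9.26, 9.52 and 9.59 on the siControl arrays, 11.06, 10.75 and 11.07 after siTDRD9-1, and 11.12, 11 and 10.75 after siTDRD9-2. The groups were separated by more than 1 log2 unit, and the 2 siRNAs overlapped each other. It rose by 1.5 with siTDRD9-1 (2.83-fold, standard error 0.132, FDR 9.5e-05 in limma) and by 1.5 with siTDRD9-2 (2.82-fold, FDR 6.81e-05). With any single array left out, both changes stayed between 1.40 and 1.61. The dimmer probe set of the same gene read 4.31, 4.08 and 3.80 after siControl, 4.47, 4.43 and 4.22 after siTDRD9-1, and 4.69, 4.89 and 4.48 after siTDRD9-2. Here siControl and siTDRD9-1 overlapped, while all siTDRD9-2 arrays lay above siControl. Its changes were 0.31 (FDR 0.216) and 0.62 (FDR 0.0153). The 2 probe sets of the gene thus differed in the size of the change, and the suffix x_at marks probes that can also pair with other transcripts.

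*H2AC17* also encodes an H2A protein and lies in the cluster on chromosome 6. Its brighter probe set, with the suffix x_at, read 6.86, 6.66 and 7.03 after siControl, 7.87, 7.71 and 7.74 after siTDRD9-1, and 7.86, 7.93 and 7.36 after siTDRD9-2. It rose by 0.93 (standard error 0.148, FDR 0.0026) and by 0.87 (FDR 0.00317). The dimmer probe set read 5.91, 5.76 and 6.22, then 6.92, 6.87 and 6.82, then 6.93, 7.21 and 6.62 in the same order. Neither probe set had any siTDRD9 array within the siControl range. The dimmer probe set rose by 0.91 (FDR 0.00308) and by 0.95 (FDR 0.00198). All 4 changes were between 1.82-fold and 1.94-fold and so below the fold limit of a call. They rested on few arrays: without siControl replicate 2 the FDR of all 4 exceeded 0.01, and over all single arrays left out it reached 0.0203 while the change stayed between 0.76 and 1.1. The rises of *H2AC20* and *H2AC17* were measured on the 6 arrays that had the lower spike-in signal (change of -0.69) and the higher 18S 3′ signal (change of 1.48).

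*H2AC7*, another H2A gene, was represented by 1 dim probe set with the suffix x_at. It read 2.57, 2.93 and 2.54 after siControl, 3.42, 3.33 and 3.17 after siTDRD9-1, and 3.34, 3.16 and 3.76 after siTDRD9-2. No siTDRD9 array overlapped siControl, but the changes of 0.63 (FDR 0.0248) and 0.74 (FDR 0.0101) did not pass the FDR limit. A brighter s_at probe set annotated to both *H2AC7* and *H3C4*, and so not a member, gave 0.19 (FDR 0.267) and 0.061 (FDR 0.754). At the low end of the class stood *H2AC21*. The lowest of its 3 probe sets read 4.53, 4.74 and 4.59 after siControl, 3.98, 4.03 and 4.36 after siTDRD9-1, and 4.48, 4.36 and 3.91 after siTDRD9-2. All 6 siTDRD9 arrays were below siControl, by -0.50 (FDR 0.0594) and -0.37 (FDR 0.147) on average. Neither change passed, but with array weights the first was -0.65 (FDR 0.000342). In the H2A class as a whole, 12 of 26 probe sets had a positive change with siTDRD9-1 and 12 with siTDRD9-2.

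**Figure D2:**
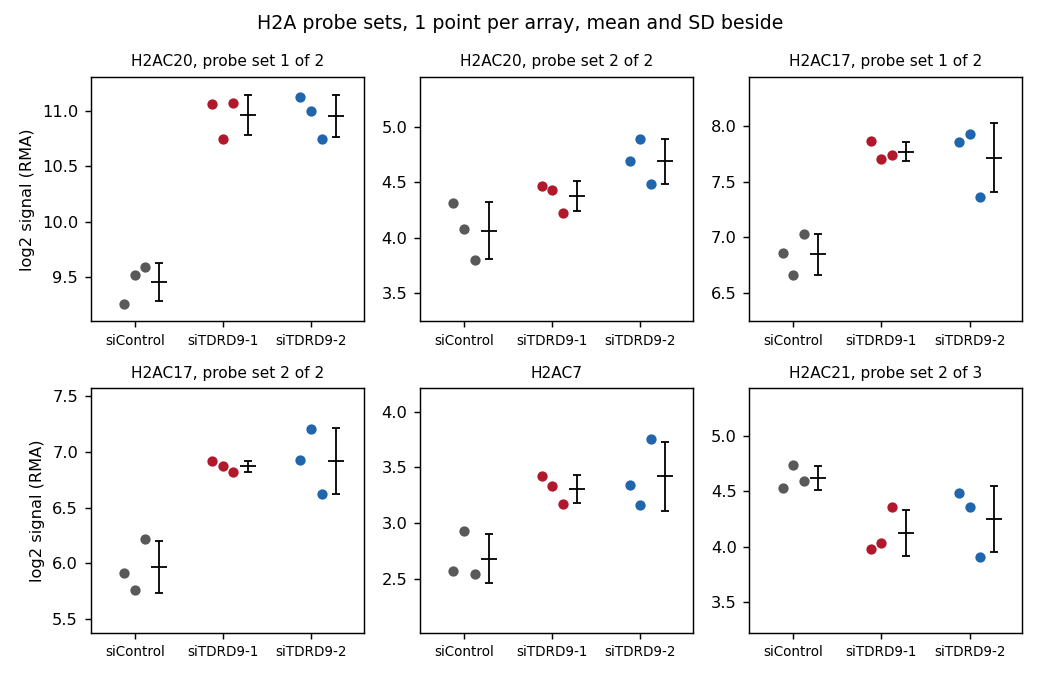
Log2 RMA signal (vertical axis) on each array for 6 H2A probe sets, with 3 siControl (grey), 3 siTDRD9-1 (red) and 3 siTDRD9-2 (blue) arrays per panel, and the mean with its SD (n = 3) beside the points. Probe sets of a gene are numbered from the brightest to the dimmest. Every panel spans its own range of values, of at least 2.2 log2 units. All siTDRD9 points of the brighter *H2AC20* probe set lie above 10.7 and all siControl points below 9.6, and only the dimmer *H2AC20* probe set shows overlap between siControl and siTDRD9-1.

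Among the H2B genes, which supply the partner of H2A in the dimer, no probe set passed an FDR of 0.01 with either siRNA. The changes ran from -0.73 to 0.38 with siTDRD9-1 and from -0.82 to 0.43 with siTDRD9-2. The lowest were those of the dimmest *H2BC11* probe set, which read 4.70, 5.12 and 5.13 after siControl, 4.40, 4.07 and 4.28 after siTDRD9-1, and 3.82, 4.13 and 4.54 after siTDRD9-2. All siTDRD9 arrays lay below all siControl arrays, and the changes of -0.73 (FDR 0.0216) and -0.82 (FDR 0.0113) missed the limit. The change with siTDRD9-2 lay inside it with a replicate block (FDR 0.00892), a variance trend (0.00592), array weights (0.000648), no dim probe sets (0.00835) and the mean of the 3 probe sets (0.00579). Without siTDRD9-2 replicate 3 both changes did so (FDR 0.00759 and 0.00327). The s_at probe set of *H2BC11* gave -0.21 and -0.45 with the 2 siRNAs, and the x_at probe set -0.36 and -0.62. The highest mean change was that of the dimmer *H2BC12* probe set. It read 3.49, 3.62 and 3.67 after siControl, 3.85, 3.85 and 4.22 after siTDRD9-1, and 3.80, 3.90 and 4.35 after siTDRD9-2, with no overlap between siControl and the rest. Its changes were 0.38 (FDR 0.137) and 0.43 (FDR 0.0882). The brighter probe set of *H2BC12* gave 0.28 (FDR 0.1) and 0.014 (FDR 0.953).

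The H3 and H4 genes, which encode the proteins of the central tetramer, had no probe set past an FDR of 0.01 with either siRNA in the 3-group fit. The highest H3 probe set was the dimmer one of *H3C10*, with 4.68, 4.37 and 4.44 for siControl, 5.04, 4.94 and 5.06 for siTDRD9-1, and 4.82, 4.63 and 4.43 for siTDRD9-2. Only the siTDRD9-1 arrays were clear of siControl, and the changes were 0.52 (FDR 0.0165) and 0.13 (FDR 0.549). The first passed with array weights (FDR 0.000325), with cyclic loess (0.00989) and without siTDRD9-2 replicate 3 (0.00925). The brighter *H3C10* probe set gave 0.17 (FDR 0.4) and 0.045 (FDR 0.846). The lowest was 1 of the 4 *H3C8* probe sets, which read 6.09, 6.27 and 6.01, then 5.73, 6.18 and 5.42, then 5.64, 5.85 and 5.58 in the order siControl, siTDRD9-1 and siTDRD9-2. The siTDRD9-1 arrays overlapped siControl. Its changes were -0.35 (FDR 0.232) and -0.43 (FDR 0.118). The brightest *H3C8* probe set gave 0.0075 and -0.049, the x_at probe set -0.2 and -0.32, and the remaining one 0.17 and -0.084.

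*H4C3* had the highest mean change of the H4 class. Its s_at probe set read 12.56, 12.50 and 12.56 after siControl, 12.72, 12.63 and 12.76 after siTDRD9-1, and 12.85, 12.93 and 12.94 after siTDRD9-2. The 3 groups did not overlap, although the steps were small: 0.16 with siTDRD9-1 (FDR 0.272) and 0.37 with siTDRD9-2 (FDR 0.0139). The latter passed with a variance trend (FDR 0.000196), array weights (0.0024), cyclic loess (0.00906) and no dim probe sets (0.00795). It did not pass with the mean of the probe sets of the gene (0.32, FDR 0.0103). The x_at probe set of *H4C3*, equally bright, gave 0.13 (FDR 0.366) and 0.26 (FDR 0.0533). The brighter *H4C12* probe set, with the suffix x_at, stood at the other end, with 7.24, 7.31 and 7.25, then 6.99, 6.91 and 7.07, then 6.91, 7.02 and 6.85 in the same order. All siTDRD9 arrays were below siControl. The changes of -0.28 (FDR 0.0645) and -0.34 (FDR 0.0257) did not pass, and the first did with array weights (FDR 0.00392). The *H4C3* and *H4C12* probe sets carry the suffixes s_at and x_at, which mark probes shared between transcripts. Of the 98 core histone probe sets, 24 are s_at and 24 are x_at. Probe alignments were not examined, and readings of such probe sets cannot be assigned to 1 gene with certainty.

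**Figure D3:**
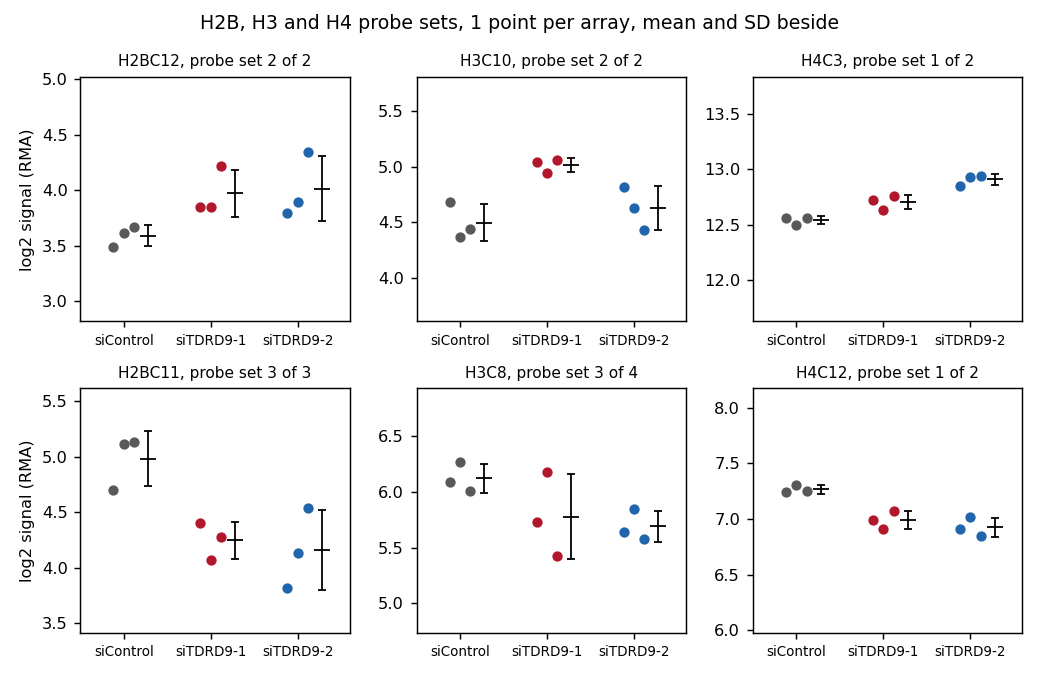
Log2 RMA signal (vertical axis) on each array for the H2B, H3 and H4 probe sets with the highest (upper row) and lowest (lower row) mean change of their class. Colors and error bars (SD, n = 3) are siControl in grey, siTDRD9-1 in red and siTDRD9-2 in blue, and each panel spans its own range of at least 2.2 log2 units, with the probe sets of a gene numbered from the brightest to the dimmest. None of these 6 probe sets passed an FDR of 0.01 in the 3-group fit, and the siControl range is overlapped in *H3C8* and *H3C10* only.

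Over all classes, all 6 siTDRD9 arrays lay above all 3 siControl arrays in 7 of the 98 probe sets (7.14%), beside 7.08% of all tested probe sets. They lay below in 4 (4.08%), beside 7.44%. The 7 were both probe sets of *H2AC17*, 1 each of *H2AC20*, *H2AC7* and *H2BC12* and both of *H4C3*. The 4 were 2 probe sets of *H2AC21* and 1 each of *H2BC11* and *H4C12*. At a looser limit, an FDR under 0.05 and 1.5-fold, 5 members passed with siTDRD9-1 (5.1%, background 4%) and 8 with siTDRD9-2 (8.16%, background 4.85%). The 5 belonged to *H2AC20*, *H2AC17*, *H2AC7* and *H2BC11*. With siTDRD9-2 the second probe set of *H2AC20*, another of *H2BC11* and 1 of *H2BC4* joined them.

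The 2 siRNAs were also compared directly. None of the 98 probe sets was called between siTDRD9-2 and siTDRD9-1 (background 0.306%), and 13 differed at an unadjusted *P* under 0.05 in limma (13.3%, background 20.5%). Of these 13, 11 were lower with siTDRD9-2 (11.2%, background 9.82%). Of these 11, 7 belonged to the 16 H3 probe sets, of *H3C1* (2 probe sets), *H3C2*, *H3C4*, *H3C8*, *H3C10* and *H3C11*. The largest of these differences was that of *H3C4*, which read 5.53, 5.60 and 5.32 with siTDRD9-1 and 5.06, 5.24 and 4.77 with siTDRD9-2, beside 5.32, 5.41 and 5.32 with siControl. Its difference was -0.46 (FDR 0.0495), the smallest FDR of the 98 in this comparison, so none reached the limit of 0.01. Other probe sets of the same genes differed less, with -0.085, -0.057 and -0.13 for *H3C8* and -0.12 for *H3C10*. The count by class was not tested.

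Human H2A and H2B genes often lie head to head and share the DNA between their start sites. The array and RefSeq covered 11 such pairs that had a promoter window and a probe set for both genes, with 194 to 248 bases between the 2 starts. For each gene the probe set with the highest mean signal was taken, and the values are a description without a test. In the pair *H2AC20* and *H2BC21* the changes with siTDRD9-1 and siTDRD9-2 were 1.5 and 1.5 for the H2A gene and 0.23 and 0.33 for the H2B gene. In *H2AC17* and *H2BC17* they were 0.93 and 0.87 for the H2A gene and 0.18 and -0.031 for the H2B gene. In *H2AC7* and *H2BC7* they were 0.63 and 0.74 for the H2A gene and -0.30 and -0.51 for the H2B gene. In the pair that holds *H2BC11*, the brightest probe set of *H2BC11* gave -0.21 and -0.45, and that of *H2AC11* -0.12 and -0.12. The 2 H2A genes that rose therefore each had an H2B neighbor that did not pass the FDR limit. For *H2BC17* this rests on 1 dim s_at probe set with a mean log2 signal of 3.32, which may not show a change of the gene. The *H2AC7* value comes from an x_at probe set with a mean of 3.14, and that of *H2BC7* from one with a mean of 4.03.

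**Figure D4:**
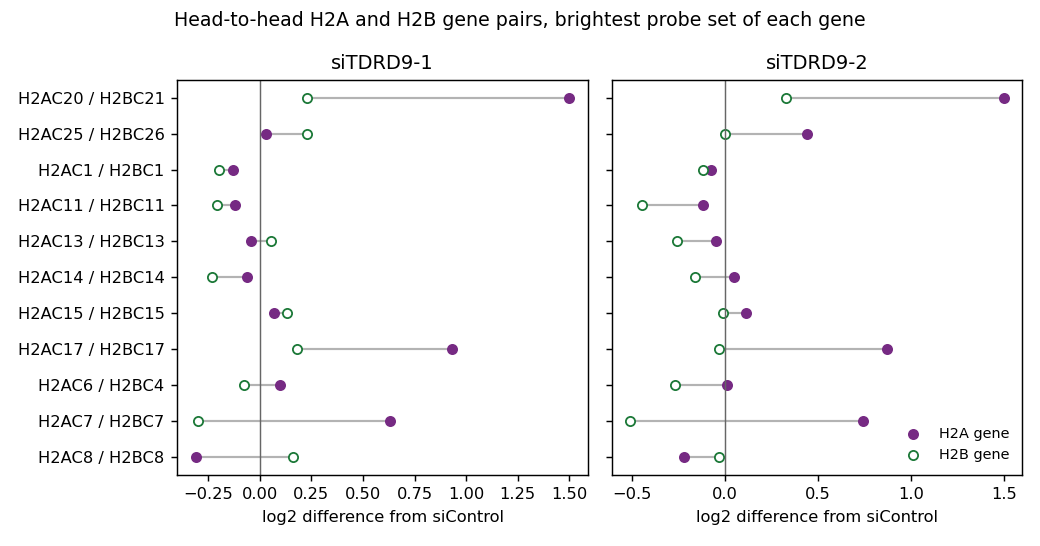
Log2 difference from siControl (horizontal axis) with siTDRD9-1 (left) and siTDRD9-2 (right) for the 11 head-to-head pairs of an H2A gene (filled) and an H2B gene (open), joined by a line, with the brightest probe set of each gene. The widest gaps are those of *H2AC20* and *H2BC21* (1.5 and 0.23 with siTDRD9-1), *H2AC7* and *H2BC7*, and *H2AC17* and *H2BC17*. In these pairs the probe sets of *H2AC7* and *H2BC17* are dim, with mean log2 signals of 3.14 and 3.32.

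Genes that make, process, degrade and deploy histone mRNA and protein were examined as a list of 45 genes with 126 probe sets. This list and those below were chosen with earlier results of these data known, so their shares are a description and not a test. There, 7 probe sets rose (5.56%, beside 2.41% of all tested) and 4 fell (3.17%, beside 2.12%) with siTDRD9-1. With siTDRD9-2, 9 rose (7.14%, beside 2.95%) and 5 fell (3.97%, beside 2.23%). The median changes were -0.011 and 0.054. In the group for the transcription of histone genes (regulators, cyclins and a kinase, 9 genes, 28 probe sets), *NPAT*, the coactivator of the histone clusters, read 7.12, 6.93 and 6.40 after siControl, 7.91, 7.64 and 7.78 after siTDRD9-1, and 8.13, 8.14 and 8.07 after siTDRD9-2 at 1 of its 3 probe sets. It rose by 0.96 (FDR 0.00271) and by 1.30 (FDR 0.000406), with no overlap between siControl and either siRNA. A second *NPAT* probe set gave 0.55 (FDR 0.016) with siTDRD9-1 and rose by 0.75 (FDR 0.00276) with siTDRD9-2, and the third gave -0.30 (FDR 0.0707) and 0.059 (FDR 0.765). *YY1*, a transcription factor with many targets, rose by 0.83 (FDR 0.00208) and by 0.80 (FDR 0.0022) at 1 of its probe sets.

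Of the 33 probe sets for the 12 genes of histone 3′ end processing, none rose with siTDRD9-1 (beside 2.41% of all tested) or siTDRD9-2 (beside 2.95%). None fell with siTDRD9-1 (beside 2.12%) and 1 fell with siTDRD9-2 (3.03%, beside 2.23%). The 1 that fell was *ZNF473*, a zinc finger protein of the U7 snRNP reaction, by 0.55 (FDR 0.00906) at its dimmer probe set. The brighter one gave 0.033 and -0.074 (FDR 0.65). In the group of 9 decay genes (22 probe sets), 4 probe sets rose (18.2%, beside 1.46% of all tested) and 1 fell (4.55%, beside 0.542%) with both siRNAs. Because the group was chosen with earlier results known, these shares cannot show an enrichment. *LSM1*, a subunit of the Lsm ring that binds the end of histone mRNA in decay, read 7.91, 8.02 and 8.12 after siControl, 7.78, 7.90 and 7.66 after siTDRD9-1, and 6.66, 6.90 and 6.89 after siTDRD9-2. All siTDRD9 arrays lay below all siControl arrays, those of siTDRD9-1 only narrowly. *LSM1* fell by 1.19 with siTDRD9-2 (FDR 6.74e-05), and its change with siTDRD9-1 was -0.23 (FDR 0.202). The siRNAs differed by -0.96 (FDR 0.000643). *XRN1*, the 5′ to 3′ exonuclease of the cytoplasm, rose by 1.06 (FDR 0.000235) and by 1.07 (FDR 0.000196). *TUT7*, a terminal uridylyltransferase, rose by 1.25 (FDR 0.00196) and by 1.1 (FDR 0.00329). *UPF1*, an RNA helicase that acts in the decay of histone mRNA with SLBP, rose by 0.87 (FDR 0.000568) and by 0.76 (FDR 0.00112). *DCP2*, the decapping enzyme, rose by 0.53 (FDR 0.00658) and by 0.68 (FDR 0.00155). Each of these genes had at least 1 other probe set that did not rise with either siRNA, with -0.52 and -0.32 for an s_at probe set of *XRN1* and -0.19 and -0.16 for the s_at probe set of *TUT7*. *ERI1*, the exonuclease that trims the histone stem-loop, moved the other way. It read 8.92, 9.09 and 9.06 after siControl, 8.13, 8.40 and 8.12 after siTDRD9-1, and 8.55, 8.51 and 8.51 after siTDRD9-2, all below siControl. *ERI1* fell by 0.81 (FDR 0.000553) and by 0.50 (FDR 0.00748), and its dimmer probe set gave -0.38 (FDR 0.0125) and -0.19 (FDR 0.159). Of the 43 probe sets for 15 histone chaperones and deposition factors, 1 rose (2.33%, beside 2.41% of all tested) and 3 fell (6.98%, beside 2.12%) with siTDRD9-1. With siTDRD9-2, none rose (beside 2.95%) and 2 fell (4.65%, beside 2.23%). None passed in 1 direction with both.

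Histone genes outside the core set were represented by 32 probe sets for 15 genes, of which 5 rose with siTDRD9-1 (15.6%, beside 2.41% of all tested), 6 rose with siTDRD9-2 (18.8%, beside 2.95%) and none fell. The linker histone genes *H1-4*, *H1-3* and *H1-2*, which lie among the core genes on chromosome 6, rose with both siRNAs. *H1-4* read 4.48, 4.69 and 5.21 after siControl, 7.43, 7.36 and 7.44 after siTDRD9-1, and 7.60, 7.87 and 7.96 after siTDRD9-2, a separation of over 2 log2 units. *H1-2* read 10.37, 10.20 and 10.18, then 11.30, 11.09 and 11.12, then 11.32, 11.45 and 10.60, and rose by 0.92 (FDR 0.0079) and by 0.88 (FDR 0.0093). *H2AZ2*, which encodes a replacement H2A that is made outside S phase as well, rose by 1.26 (FDR 0.00481) and by 1.28 (FDR 0.00385) at 1 of its 5 probe sets. Of the 7 linker probe sets, 3 rose with both siRNAs (42.9%, beside 1.46% of all tested). The median change of the linker probe sets was 0.92 and 0.88, beside -0.006 and -0.048 for the core histone probe sets.

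Transcripts linked to S phase were followed with a list of 22 genes, most of them of DNA replication and nucleotide supply (59 probe sets). There, 1 rose (1.69%, beside 2.41% of all tested) and 4 fell (6.78%, beside 2.12%) with siTDRD9-1. With siTDRD9-2, 1 rose (1.69%, beside 2.95%) and none fell (beside 2.23%), and none passed the limit in 1 direction with both. The medians were -0.056 and 0.031. These transcript levels do not measure the share of cells in S phase. By flow cytometry, the paper reports a higher percentage of H1993 cells in S phase after *TDRD9* knockdown. The 4 that fell with siTDRD9-1 were 3 probe sets of *RRM1*, the large subunit of ribonucleotide reductase, and 1 of *RFC3*, a subunit of the clamp loader. The s_at probe set of *RRM1* fell by 0.68 with siTDRD9-1 (FDR 0.000541) and had a change of 0.014 with siTDRD9-2 (FDR 0.945).

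**Figure D5:**
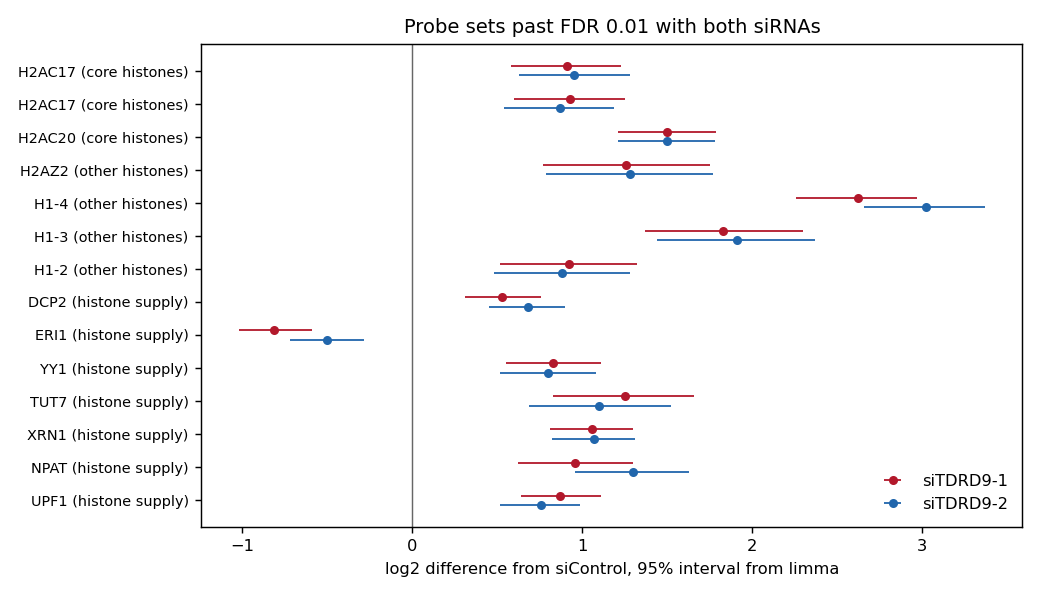
Log2 difference from siControl (horizontal axis) with its 95% interval from limma for the core histone, other histone and histone supply probe sets that passed an FDR of 0.01 in 1 direction with both siRNAs, siTDRD9-1 in red and siTDRD9-2 in blue. *H1-4* is the furthest to the right (2.62 and 3.02), the 3 core histone probe sets lie between 0.87 and 1.5, and *ERI1* is the only one to the left of 0.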

How the data were processed

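Transcripts were measured in 9 cultures of H1993 cells on Affymetrix PrimeView arrays. The deposited log2 values were made by the authors with RMA (Affymetrix Expression Console). Their own tests used limma. Tool versions are not given in the sources used here. No further normalization was applied. Probe sets were named with the platform annotation. Control probe sets (102 of 49395) were left out of the tests. The other 49293 were fitted with limma 3.58.1 in R 4.3.3 as 1 model of the 3 groups, with Benjamini-Hochberg adjustment. The fit was tested on simulated data. Named with values on every array were the markers *H2AC20* and *H2AC17*, every called member and, per class, the probe sets with the highest and lowest mean change. *H2AC7*, *H3C4* and the second probe set of *H2BC12* were named after their values were seen. From other lists, those past the FDR limit with both siRNAs in 1 direction could be named, and *ZNF473*, *LSM1*, *RRM1* and *RFC3* were added after their values were seen. The members, the lists and the tests were chosen with earlier results of these data known. Of 63 RefSeq symbols of the pattern, 8 had no single-gene probe set, and 9 probe sets of several genes and 1 of a pseudogene were left out. Of 47, 16 and 23 genes listed for histone supply, other histones and S phase, 2, 1 and 1 had no single-gene probe set. The alternatives were other fits, scalings, filters, thresholds, ways of joining probe sets and leaving out each array. Promoters were searched with Python 3.11.15 and pandas 2.3.3.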

Additional observations from a re-analysis of the deposited data

Results flagged for a closer look

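A probe set that the choice of members left out passed the FDR limit. It is an s_at probe set annotated to both *H4C12* and *H4C11*, and it read 7.96, 8.84 and 8.55 after siControl, 7.83, 7.80 and 7.71 after siTDRD9-1, and 7.76, 7.55 and 7.18 after siTDRD9-2. All 6 siTDRD9 arrays lay below siControl, and the siControl arrays spread most. The change with siTDRD9-2 was -0.96 (FDR 0.00985 in limma, just inside the limit of 0.01) and that with siTDRD9-1 was -0.67 (FDR 0.0537). The x_at probe set of *H4C12* alone gave -0.28 and -0.34. No cause was tested.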

How the results depend on the processing

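The counts of called core histone probe sets were 1 with siTDRD9-1, 1 with siTDRD9-2, 1 with both and 0 between the siRNAs. They were the same with fits of 2 groups, a variance trend, median centring, cyclic loess, no dim probe sets, the brightest probe set of each gene, or no s_at and x_at probe sets. With array weights they were 2, 3 and 2, and the median change with siTDRD9-1 was 0.045. With an FDR under 0.05 and 1.5-fold they were 5, 8 and 5, and with an FDR under 0.01 and no minimum fold 3, 3 and 3. With the mean of the probe sets of each gene, 0 genes were called with siTDRD9-1 and 0 with both, where the mean change of *H2AC20* was 0.91 and 1.06. Without s_at and x_at probe sets the median with siTDRD9-1 was -0.058. With each array left out in turn, the counts were 1 to 3 with siTDRD9-1, 1 to 4 with siTDRD9-2, 1 to 2 with both and 0 to 0 between the siRNAs, and the medians -0.057 to 0.024 and -0.078 to -0.027. The highest counts came without siControl replicate 3 (3 with siTDRD9-1 and 2 with both) and without siTDRD9-2 replicate 3 (4 with siTDRD9-2). The cause was not tested. No change of a named probe set reversed under these alternatives. Without single arrays, 12 changes of named probe sets, all of *H2AC17*, lost the FDR limit and 3 gained it. Under the other alternatives 1 lost it (*H2AC17* with fits of 2 groups) and 18 gained it, among *H2AC20*, *H2AC21*, *H2BC11*, *H3C10*, *H4C3* and *H4C12*.

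Arrays with the same replicate number did not deviate together (*r* of -0.15 to 0.15 over 9 pairs, and -0.255 to 0.169 over 18 pairs with different numbers). With 3 arrays per group, this cannot show whether cultures of the same number were handled together. With the replicate number as a block, the counts of calls were 1, 1, 1 and 0 and the medians -0.006 and -0.048, while the changes of the dimmer *H2AC20* probe set (FDR 0.00485) and of *H2BC11* (FDR 0.00892) with siTDRD9-2 came inside the FDR limit. Signal limits the dim probe sets: 28 of 98 had a mean log2 signal under 4.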

Other observations

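The other left-out probe sets, which name several core histone genes each or a pseudogene, gave no change past the FDR limit. The pair *H2AC18* and *H2AC19*, duplicated H2A genes on chromosome 1, had 2 bright probe sets with changes of 0.081 and 0.030 with siTDRD9-1 and of 0.12 and 0.05 with siTDRD9-2. The s_at probe set of *H4C14* and *H4C15* changed by 0.27 and -0.073, and the pseudogene *H2BC20P* by 0.38 (FDR 0.0696) and 0.31 (FDR 0.127).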
